A study of Mus musculus with 6 samples.

Results

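The spliceosome genes described here were the genes of a deposited mouse liver ATAC-seq table whose pathway annotation held the term Spliceosome, leaving out the Hspa heat shock genes that carry the same term. The rule gave 80 of 10709 genes with 114 of 22412 peaks, and it left out 3 Hspa genes with 5 peaks. It used the annotation only and no measured value. ATAC-seq uses a transposase that inserts adapters where chromatin is open, so the reads over a peak measure how accessible that stretch of DNA was. All samples were liver tissue of mice. The 3 control samples carried Ad-EGFP, which encodes a green fluorescent protein, and the 3 Dyrk1b samples carried Ad-Dyrk1b and are labelled as overexpressing this kinase. The labels used here give no strain, age, sex, dose or time, and do not say that the replicates were separate animals, so a p-value here reflects how far the samples scatter, and that scatter may be technical.

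The spliceosome is the assembly of small nuclear RNAs and proteins that cuts introns out of pre-mRNA. U1 binds the 5' splice site, U2 and the U2AF factors mark the branch point and the 3' splice site, and the U4/U6.U5 tri-snRNP then joins before the Prp19 complex and a series of RNA helicases drive the catalytic steps. Dyrk kinases belong to the same wider kinase family as the Clk kinases, which phosphorylate SR proteins, the serine and arginine rich splicing factors. Most spliceosome genes are expressed in every cell, from promoters rich in CpG.

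Promoter sequences are shown first because 67 of the 114 member peaks lay at gene starts. RefSeq promoter windows of GRCm38.p6 were matched by symbol for 60 of the 80 genes, which gave 73 windows, and only the 250 bases before each start were read. Windows of a gene with several starts can share bases. The ETS core CCGGAAG, searched on both strands, stood in 30 of the 73 windows or 41.1%, against 6.91% of all 32851 windows and 13.9% of the 6982 windows of genes with a peak at the start. The 30 windows belonged to 27 genes, and those of Sf3b6, Smndc1, Snrpb2 and Syf2 held more than 1 match. The windows of Sf3b6, a U2 subunit that touches the branch point, Snrpb2, the U2 B'' protein, and Syf2, a factor of the Prp19-related complex, are printed to show these matches, with every match to a searched motif in capitals, 5' to 3' on the strand of the gene.
Sf3b6 (chr12:4817358-4817607, plus strand): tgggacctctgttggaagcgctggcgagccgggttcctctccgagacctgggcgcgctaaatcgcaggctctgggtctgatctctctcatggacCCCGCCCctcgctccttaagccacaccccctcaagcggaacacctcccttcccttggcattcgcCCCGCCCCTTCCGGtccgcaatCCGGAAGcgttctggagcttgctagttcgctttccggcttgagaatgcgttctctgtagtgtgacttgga
Snrpb2 (chr2:143062819-143063068, plus strand): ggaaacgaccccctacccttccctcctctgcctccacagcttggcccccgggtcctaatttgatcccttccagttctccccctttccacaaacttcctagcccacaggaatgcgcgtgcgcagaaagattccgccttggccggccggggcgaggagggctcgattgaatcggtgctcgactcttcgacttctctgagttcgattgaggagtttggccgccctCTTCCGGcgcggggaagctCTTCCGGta
Syf2 (chr4:134930730-134930979, plus strand): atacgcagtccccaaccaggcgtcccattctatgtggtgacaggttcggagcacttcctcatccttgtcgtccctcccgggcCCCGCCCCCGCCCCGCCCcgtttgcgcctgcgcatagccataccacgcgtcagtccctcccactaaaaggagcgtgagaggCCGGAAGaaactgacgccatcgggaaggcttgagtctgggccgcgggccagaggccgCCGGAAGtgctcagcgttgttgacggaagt
In Snrpb2 the matches began 28 and 9 bases before the start, and in Syf2 87 and 30 bases before it. In Sf3b6 they began 85 and 70 bases before it, the first directly beside a match to GGGCGGG, and in Syf2 3 overlapping matches to GGGCGGG formed 1 run of capitals.

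The other motifs were searched in the same way, on both strands. NRF1, written GCGCATGC, stood in 5.48% of member windows, 2.26% of all windows and 4.77% of windows of genes with a peak at the start. YY1, written ATGGCGG, stood in 6.85%, 2.21% and 3.71% of the same sets, and the SP box GGGCGGG in 35.6%, 23.4% and 44.4%. CCAAT was found in 30.1% of member windows against 34.5% of windows of genes with a peak at the start. The letters TATAAA were in 4.11% of member windows, 12.4% of all windows and 6.30% of windows of genes with a peak at the start. The remaining motifs were the CRE letters TGACGTCA, in 2.74% of member windows and 2.21% of windows of genes with a peak at the start, the CHR letters TTTGAA, in 12.3% and 9.80%, and the E-box CACGTG, in 6.85% and 7.91%. These are letter matches and not measured binding sites. The member windows were rich in CpG, with a median of 19 CpG pairs and a median observed over expected CpG ratio of 0.919, against 0.373 over all windows and 0.730 over windows of genes with a peak at the start. A ratio of at least 0.6 was reached by 87.7% of member windows and by 67.1% of windows of genes with a peak at the start, while the median GC content, 58.8%, lay below the 60.0% of the latter set.

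The next 4 windows belong to genes whose start peaks are described further on for their difference between the groups: Pcbp1, a poly(C) binding protein, U2af1l4, a relative of the small U2AF subunit, Plrg1, a core subunit of the Prp19 complex, and Hnrnpc, which binds uridine runs in pre-mRNA.
Pcbp1 (chr6:86526190-86526439, minus strand): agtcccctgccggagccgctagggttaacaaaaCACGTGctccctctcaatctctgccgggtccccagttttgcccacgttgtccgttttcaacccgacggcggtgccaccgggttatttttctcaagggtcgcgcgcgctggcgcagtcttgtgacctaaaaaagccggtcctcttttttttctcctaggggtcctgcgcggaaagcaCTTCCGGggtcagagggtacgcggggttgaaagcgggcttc
U2af1l4 (chr7:30563090-30563339, plus strand): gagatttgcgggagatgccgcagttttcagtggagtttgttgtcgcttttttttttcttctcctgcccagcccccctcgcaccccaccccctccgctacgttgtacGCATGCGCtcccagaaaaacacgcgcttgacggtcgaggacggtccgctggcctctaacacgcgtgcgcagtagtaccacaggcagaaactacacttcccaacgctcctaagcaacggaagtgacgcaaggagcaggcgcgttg
Plrg1 (chr3:83055288-83055537, plus strand): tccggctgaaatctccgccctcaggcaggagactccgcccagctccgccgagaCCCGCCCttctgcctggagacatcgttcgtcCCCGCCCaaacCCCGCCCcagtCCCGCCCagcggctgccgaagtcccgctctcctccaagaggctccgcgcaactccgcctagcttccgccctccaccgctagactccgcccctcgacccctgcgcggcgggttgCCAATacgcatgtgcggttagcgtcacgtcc
Hnrnpc (chr14:52104022-52104271, minus strand): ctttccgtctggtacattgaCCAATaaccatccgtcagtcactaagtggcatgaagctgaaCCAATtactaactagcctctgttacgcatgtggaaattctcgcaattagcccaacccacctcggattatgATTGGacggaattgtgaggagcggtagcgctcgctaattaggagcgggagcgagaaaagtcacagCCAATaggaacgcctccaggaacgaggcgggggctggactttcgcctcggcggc
The capitals mark 1 E-box and 1 ETS core in Pcbp1 and 1 NRF1 match in U2af1l4. In Plrg1 they mark 4 SP boxes and 1 CCAAT box, and in Hnrnpc 4 CCAAT boxes. Among the start peaks of genes with a window, the 22 whose gene held the ETS core had a median log2 change of -0.15 and the 28 without it -0.28, and log2 changes above 0 were found at 9 of each. At an unadjusted p under 0.05, 1 of the 22 and 6 of the 28 were lower, beside 97 of 971 with the core and 420 of 5067 without it over all genes. The same medians over all genes with such peaks were -0.11 and -0.065.

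The authors classed 22 member peaks, of 21 genes, as promoter peaks. Another 45 member peaks had another class but lay within 1 kb of the start of their own gene, and 47 lay further away, mostly in introns. The members were thus placed nearer to starts than peaks in general, with 39.5% of their peaks in the second group against 22.3% of all peaks, and 41.2% against 62.5% in the third. A single peak was annotated to 59 genes, and 66 of the 80 had a peak at the start. Naa12 and 4931428L18Rik belong to the pathway by annotation only. The second carries the pathway entry of the mRNA export factor Alyref, and Naa12, named for an acetyltransferase, carries that of its chromosomal neighbour Txnl4a. Coordinates are printed as deposited. Their build is not established, because only 3 of 79 member genes started within 2 kb of their GRCm38.p6 position.

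The libraries held 762633 to 1267934 reads in peaks, 1.67% to 2.62% of the totals that the deposited RPKM values were scaled by, and the median member peak held 32 to 53.5 reads per library. No peak was listed with fewer than 1 read. The first principal component, 32.6% of the variance, separated the groups. The peak in exon 9 of Dyrk1b held 11.7, 1.21 and 4.03 CPM in controls 1, 2 and 3 and 35.8, 33.1 and 40.7 CPM in Dyrk1b libraries 1, 2 and 3, where CPM is the TMM-normalised read count relative to all peak reads. Its log2 change was 2.64 ± 0.50 (SE) with an adjusted p of 0.0098 by edgeR's quasi-likelihood test with Benjamini-Hochberg adjustment. Whether these reads came from the introduced gene was not tested. Of 7 hepatocyte markers 4 had a peak, with none at Ttr, Cps1 and Serpina1a, and their 6 peaks summed to 238 to 380 CPM in controls and 260 to 300.0 CPM in Dyrk1b libraries. Markers of other liver cells and lymphocytes had 9 peaks of 6 genes, with sums of 300.04 to 352.2 CPM in controls and 351.7 to 400.3 CPM in Dyrk1b libraries, and 7 of these 9 log2 changes were positive under TMM, none with an adjusted p under 0.05. Of the 6 hepatocyte log2 changes, 1 was positive and 5 were negative, again with no adjusted p under 0.05. Over all peaks tested 50.5% were positive, and 55.3% of those outside the promoter class and beyond 1 kb of a start. None of the 4 cholangiocyte markers had a peak. A change in the share of a cell type cannot be told apart from a change of accessibility within cells, and the part of cell makeup in the values that follow was not tested.

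No spliceosome peak differed between Dyrk1b and control samples at an adjusted p under 0.05. The lowest adjusted p among the 114, by edgeR's quasi-likelihood test, was 0.112 at Thoc1, while over all 22051 peaks tested 2 were called higher, 0.00907%, and 5 lower, 0.0227%. All 114 member peaks passed the filter on low counts. At an unadjusted p under 0.05, 6 member peaks were higher and 18 lower, beside 6.44% higher and 7.72% lower over all peaks. DESeq2 and limma-trend called none of the 114 either, although DESeq2 gave no adjusted p for 71 of them. That split rests on the scaling: with those RPKM totals (library totals) in place of TMM, 8 were higher and 1 lower, because that scaling moves the median log2 change of all peaks from 0.0047 to 0.17. Of all peaks at an unadjusted p under 0.05 with library totals, 87.0% were higher. A p under 0.05 in the authors' deposited table was given to 10 member peaks, 8 higher and 2 lower, beside 7.85% higher and 1.52% lower over all peaks there, and the lowest FDR of a member was 0.334, at Snrnp70. Changes are therefore best read against all peaks. The median over members lay below the median over all peaks by 0.13 under TMM and under library totals and by 0.11 with loess offsets.

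As a share of all reads in peaks, the members took 0.572%, 0.524% and 0.559% in controls 1, 2 and 3 and 0.504%, 0.518% and 0.509% in Dyrk1b libraries 1, 2 and 3. All 3 Dyrk1b values lay below all 3 control values. This share uses no TMM factor, but its base, the reads in peaks, is itself a scaling. Those reads were 2.22%, 1.89% and 1.97% of the library totals in controls 1, 2 and 3. In Dyrk1b libraries 1, 2 and 3 they were 1.67%, 2.34% and 2.62%. Shares of the library totals were not compared. With 3 samples against 3, the smallest two-sided exact permutation p is 0.1, so the comparison of shares of peak reads cannot pass 0.05. The non-promoter peaks within 1 kb of a start carried 0.261%, 0.243% and 0.267% in controls and 0.230%, 0.237% and 0.225% in Dyrk1b libraries, again with no overlap. The promoter class carried 0.138%, 0.118% and 0.127% in controls and 0.104%, 0.118% and 0.119% in Dyrk1b libraries, where the groups overlapped by a narrow margin. The peaks further away carried 0.173%, 0.163% and 0.165% in controls and 0.170%, 0.163% and 0.164% in Dyrk1b libraries and overlapped throughout. Over all promoter peaks of the table the shares were 18.7%, 18.1% and 18.7% in controls and 16.8%, 18.2% and 17.5% in Dyrk1b libraries. All non-promoter peaks within 1 kb of a start carried 30.1%, 31.8% and 31.7% in controls and 31.9%, 31.2% and 30.2% in Dyrk1b libraries. All peaks further away carried 51.2%, 50.1% and 49.6% in controls and 51.3%, 50.6% and 52.3% in Dyrk1b libraries. In each of these classes of all peaks the groups overlapped.

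Split by position, the member promoters had a median log2 change of -0.19 beside -0.098 for all promoter peaks, with 7 values above 0 and 15 below. Over all 3390 promoter peaks tested, 1344 were above 0 and 2046 below. At an unadjusted p under 0.05, none of the 22 was higher and 5 were lower, beside 3.81% higher and 9.68% lower over all promoter peaks. The 5 became 3 when control 1, control 2, control 3, Dyrk1b 2 or Dyrk1b 3 was left out, and 2 with loess offsets and 0 with library totals. Groups that did not overlap were found at 5 member promoters, all lower, beside 6.14% higher and 13% lower over all promoter peaks. Without control 1 the median of the member promoters was -0.066, while that of all promoter peaks was lower, at -0.096.

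The 45 other peaks within 1 kb of a start had a median log2 change of -0.22 beside -0.054 for all 4986 such peaks tested, and 30 of the 45 were below 0, beside 2763 of the 4986. At an unadjusted p under 0.05, 2 were higher and 7 lower, beside 4.67% and 8.32% over all such peaks, and the groups did not overlap at 2 higher and 8 lower peaks, beside 6.5% and 11.3%. The difference between the members' median and that of all such peaks lay between -0.19 and -0.12 over the 14 settings run, which changed the scaling, tool or filter or left out 1 library. The 2 higher peaks became 1 without control 1, 2 or 3 or Dyrk1b 2 or 3, and under library totals 2 were higher and 1 lower. Of all such peaks at an unadjusted p under 0.05 with library totals, 85.7% were higher. The 47 peaks further away had a median of -0.0041 beside 0.064 for all such peaks, with 23 above 0 and 24 below, beside 7558 and 6117 over all such peaks. There 4 were higher and 6 lower at an unadjusted p under 0.05, beside 7.73% and 7.01% over all such peaks, and 4 higher and 7 lower without overlap, beside 11.5% and 8.75%. Of these 6 lower peaks, 3 belonged to 4931428L18Rik, a member by annotation only, as did 3 of the 7 without overlap. The 6 lower peaks became 3 without control 1 or any 1 of the 3 Dyrk1b libraries, and under library totals 6 were higher and 0 lower. With library totals, 87.7% of all peaks further away at an unadjusted p under 0.05 were higher. The peaks outside the promoter class together, near and far, held 6 higher and 13 lower members, beside 6.91% and 7.36% over all such peaks.

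**Figure D1:**
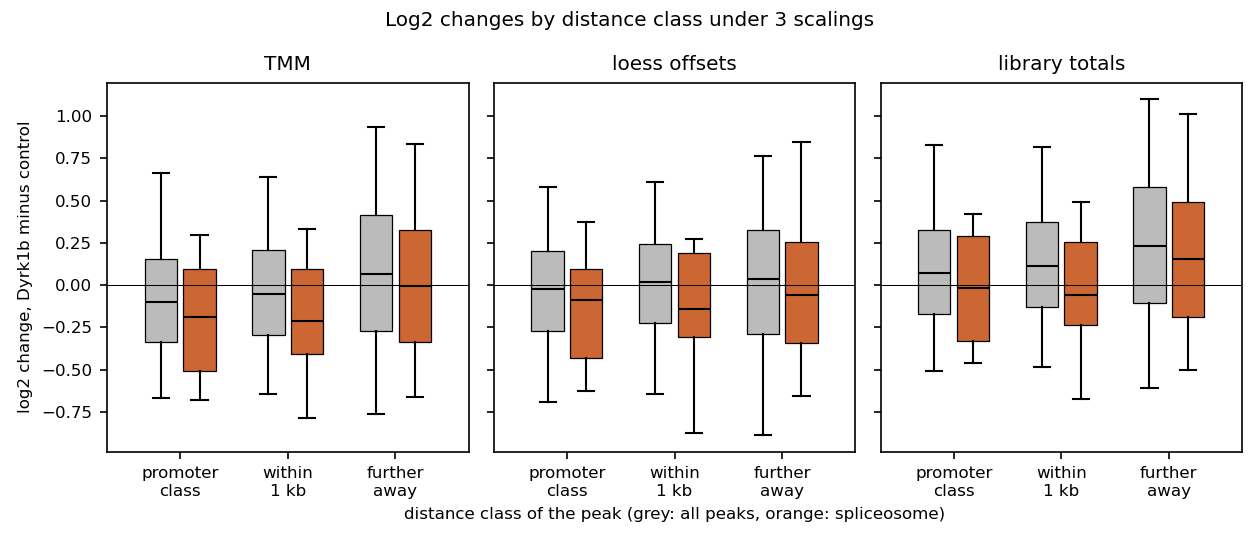
Log2 change of accessibility, Dyrk1b minus control, by distance class of the peak under 3 scalings (boxes: quartiles and median, whiskers: 5th to 95th percentile). Orange boxes are the 114 spliceosome peaks and grey boxes all peaks tested; the spliceosome medians of promoter and start peaks lie at -0.19 and -0.22 under TMM and at -0.015 and -0.058 under library totals, where the grey boxes move up as well.

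In level the spliceosome promoters were like promoters in general, with a median of 87.1 CPM per kb of peak beside 85.3 for all promoter peaks. The peaks within 1 kb stood at 79.5 beside 81.8 CPM per kb, and those further away at 74.0 in both sets. Snrpe, which encodes the Sm protein E, had the highest promoter level per length among members at 134.2 CPM per kb. The member promoter peaks were also of ordinary length, with a median of 569 bases beside 544.

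**Figure D2:**
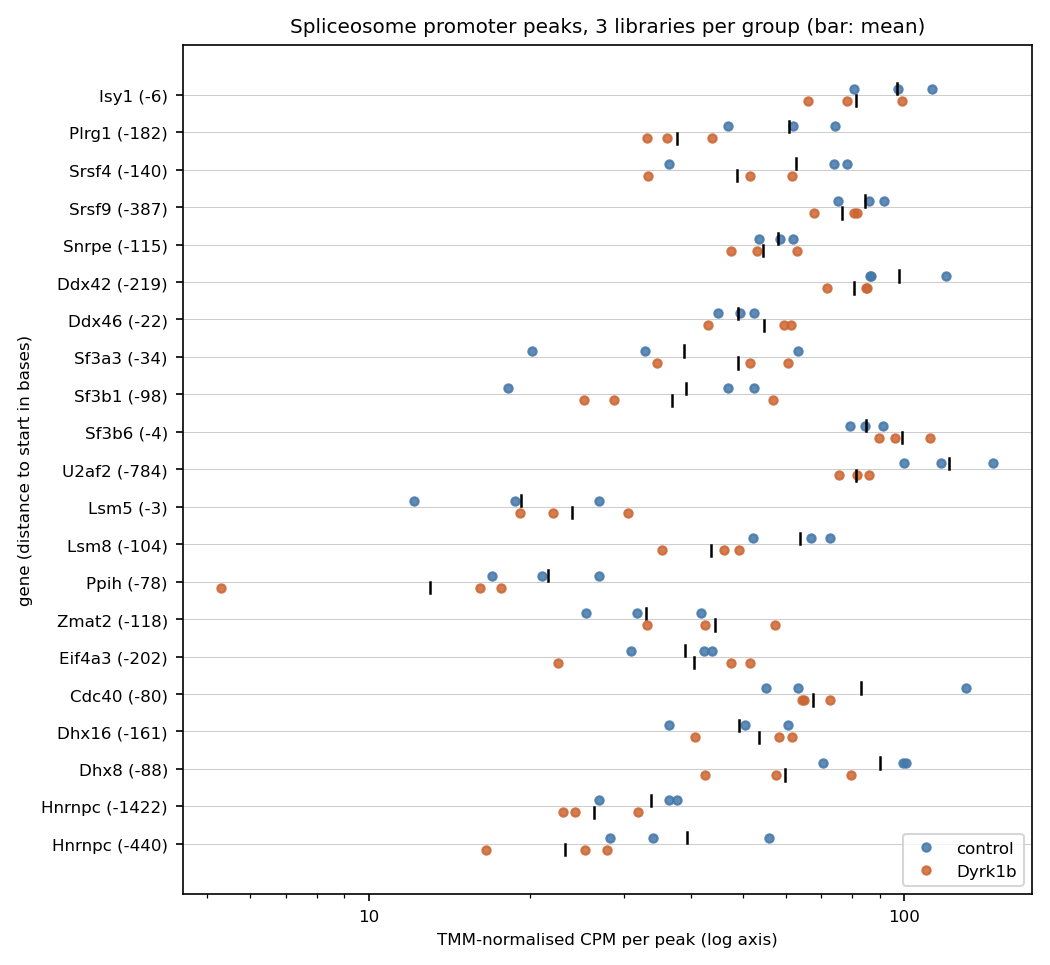
TMM-normalised CPM (log axis) of 21 of the 22 spliceosome promoter peaks in the 3 control and 3 Dyrk1b libraries, 1 point per library, with the mean as a black bar. The libraries of the groups do not overlap at U2af2, Plrg1, Lsm8, Ddx42 and the Hnrnpc peak 440 bases before the start, where the Dyrk1b points are lower under this scaling.

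Among U1 components and U1-associated factors, 10 peaks of 6 genes were measured, and all 4 non-promoter start peaks had log2 changes below 0 under TMM, library totals and loess offsets. Over all such peaks of the table, 2763 of 4986 were below 0 under TMM. At an unadjusted p under 0.05, 1 of the 10 was higher and 2 were lower, beside 6.44% and 7.72% of all peaks. At Ddx5, an RNA helicase that acts on U1 at the 5' splice site, the peak 354 bases after the start (11:106679258-106680057, 5' UTR) held 82.1, 109 and 101 CPM in controls and 57.1, 50.7 and 66.8 CPM in Dyrk1b libraries. All 3 Dyrk1b libraries lay below the controls, with a log2 change of -0.73 ± 0.23 and an adjusted p of 0.169. Snrnp70 encodes the U1-70K protein, and its 2 peaks pointed in opposite directions. The peak in intron 7 of 9 (7:45030696-45031157) held 3.52, 8.50 and 18.8 CPM in controls and 18.6, 32.0 and 30.7 CPM in Dyrk1b libraries, so that control 3 lay just above Dyrk1b 1. Its log2 change of 1.43 ± 0.50 (adjusted p = 0.205) was the highest of the 114 and ranged from 1.02 without control 1 to 2.17 without control 3. The Snrnp70 start peak held 49.2, 38.9 and 45.7 CPM in controls and 35.8, 50.7 and 19.2 CPM in Dyrk1b libraries, with overlap and a log2 change of -0.37 ± 0.31. Snrpc, the U1 C protein, had no peak at an unadjusted p under 0.05.

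The U2 group and the factors that select the branch point held 21 peaks of 17 genes, 9 with a log2 change above 0 and 12 below under TMM, 11 and 10 under library totals, with 0 higher and 2 lower at an unadjusted p under 0.05, a share near the 7.72% of all peaks. The 2 were at U2af2 and U2af1l4. U2af2 encodes the large U2AF subunit, which binds the polypyrimidine tract, and its promoter peak 784 bases before the start (7:5063880-5064836) held 147, 99.6 and 117 CPM in controls and 75.6, 81.6 and 86.0 CPM in Dyrk1b libraries. The means were 121 ± 23.7 and 81.1 ± 5.20 CPM (SD, n = 3 each), the groups did not overlap, and the log2 change was -0.57 ± 0.21 with an adjusted p of 0.235. It was -0.41 without control 1. U2af1l4, whose window was printed with its NRF1 match, held 45.7, 32.8 and 35.0 CPM in controls and 10.6, 26.5 and 20.0 CPM in Dyrk1b libraries at the peak 480 bases after the start, which lies in intron 2 of 6. These groups did not overlap either, and the log2 change was -0.97 ± 0.36 (adjusted p = 0.236).

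The SF3 complexes of U2, which hold the branch site, had no peak at an unadjusted p under 0.05. Sf3b1 encodes the subunit that clamps the branch helix, and its promoter peak held 46.9, 18.2 and 52.4 CPM in controls and 25.2, 28.7 and 56.8 CPM in Dyrk1b libraries. The spread within each group was wide, and the log2 change of -0.032 ± 0.33 moved from -0.52 to 0.22 as single libraries were left out. The downstream peak of Sf3b1 had a log2 change of 0.024 ± 0.43. Sf3b6, with its pair of ETS cores, held 84.4, 91.1 and 79.3 CPM in controls and 111, 95.9 and 89.8 CPM in Dyrk1b libraries, a log2 change of 0.21 ± 0.22. Sf3a3 had a promoter log2 change of 0.33 ± 0.30, which was 0.035 without control 3 and 0.88 without control 1. Ddx46, a helicase of early U2 assembly, had one of 0.17 ± 0.26. The promoter of the helicase gene Ddx42 held lower values in all Dyrk1b libraries, but by a log2 change of only -0.26 ± 0.22 with an adjusted p of 0.584. At U2surp, a U2-associated SR-related protein, the start peak had a log2 change of -0.39 ± 0.23 and the peak in intron 18 of 27 one of 0.83 ± 0.42, with higher values in all Dyrk1b libraries at the second.

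The Sm proteins form the ring on which the spliceosomal snRNPs are built, and the table held 5 peaks of 4 Sm genes. Snrpd1 and Snrpd2, whose proteins sit side by side in that ring, differed in sign. The Snrpd2 start peak held 38.7, 41.3 and 29.6 CPM in controls and 31.8, 22.1 and 12.3 CPM in Dyrk1b libraries, a log2 change of -0.79 ± 0.36 with overlapping groups, and -0.45 without Dyrk1b 3. The Snrpd1 peak in intron 1 held 31.7, 46.2 and 22.9 CPM in controls and 37.2, 57.3 and 58.4 CPM in Dyrk1b libraries, a log2 change of 0.61 ± 0.30, also with overlap. Their adjusted p were 0.319 and 0.341 by edgeR's quasi-likelihood test. The promoter of Snrpe held 53.4 to 61.8 CPM in controls and 47.4 to 63.0 CPM in Dyrk1b libraries, with a log2 change of -0.077 ± 0.25 that turned positive, 0.094, under library totals.

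For the U4/U6.U5 tri-snRNP and the Lsm ring of U6, 14 of 19 peaks had log2 changes below 0 under TMM, with a median of -0.13, but 9 of 19 under library totals, and 0 higher and 2 lower at an unadjusted p under 0.05, a share near the 7.72% of all peaks. The 2 were at Lsm8 and Lsm4. The Lsm8 promoter peak (6:18848168-18848780) held 66.8, 52.2 and 72.6 CPM in controls and 49.1, 35.3 and 46.1 CPM in Dyrk1b libraries without overlap, a log2 change of -0.55 ± 0.26 with an adjusted p of 0.328. At Lsm4 the start peak held 91.5, 49.8 and 95.5 CPM in controls and 54.4, 50.7 and 61.4 CPM in Dyrk1b libraries. Control 2 lay below all Dyrk1b libraries there, and the log2 change was -0.49 ± 0.25. Prpf8 encodes the protein at the catalytic core of the spliceosome. Its 2 peaks had log2 changes of 0.31 ± 0.54 near the start and -0.0041 ± 0.32 in the gene body, both with overlapping groups. At Ppih, a peptidyl-prolyl isomerase of the tri-snRNP, the promoter peak held 21.1, 17.0 and 26.9 CPM in controls and 5.31, 17.6 and 16.1 CPM in Dyrk1b libraries, a log2 change of -0.68 ± 0.50 that was -0.35 without Dyrk1b 1. The promoters of Zmat2 and Lsm5 had log2 changes of 0.42 ± 0.31 and 0.30 ± 0.43.

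The Prp19 complex and the factors of the activated spliceosome held 23 peaks of 11 genes, split 12 above 0 and 11 below, with 3 higher and 2 lower at an unadjusted p under 0.05, beside 6.44% and 7.72% of all peaks. Above 0 were 10 of the 15 body peaks and 2 of the 8 promoter and start peaks under TMM, and 11 and 3 under library totals. The 15 body peaks belonged to only 5 genes. Over all peaks under TMM, 55.3% of body peaks, 39.6% of promoter peaks and 44.6% of the other start peaks were above 0. The Plrg1 promoter peak (3:82962422-82962872) held 46.9, 74.1 and 61.8 CPM in controls and 43.8, 33.1 and 36.1 CPM in Dyrk1b libraries, without overlap, a log2 change of -0.70 ± 0.27 with an adjusted p of 0.253. Prpf19, the ubiquitin ligase that gives the complex its name, had lower values in all Dyrk1b libraries at its start peak, 54.5 ± 11.7 against 76.3 ± 3.31 CPM (SD, n = 3 each), a log2 change of -0.46 ± 0.24. Ctnnbl1, which joins the complex through Cdc5l, had 7 peaks. Its peak in exon 8 of 16 (2:157659539-157659955) held 9.38, 14.6 and 13.4 CPM in controls and 21.2, 26.5 and 34.6 CPM in Dyrk1b libraries, a log2 change of 1.15 ± 0.45 with an adjusted p of 0.252. The peak in intron 10 of 15 held 44.6, 14.6 and 35.0 CPM in controls and 51.8, 58.4 and 53.7 CPM in Dyrk1b libraries, a log2 change of 0.80 ± 0.30 that was 0.45 without control 2. Neither pair of groups overlapped, while the Ctnnbl1 start peak had a log2 change of -0.54 ± 0.29 and the other 4 lay between -0.035 and 0.13.

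Aqr, an RNA helicase that binds the intron upstream of the branch point, had 3 peaks. The peak in exon 2 of 4 (2:114005652-114006042) held 32.8, 8.50 and 17.5 CPM in controls and 42.5, 38.6 and 36.9 CPM in Dyrk1b libraries, a log2 change of 0.98 ± 0.37 that was 0.62 without control 2 and 1.60 without control 1. Of the 2 peaks annotated downstream, 1 has a deposited distance of 19865 bases, which by its coordinates is not to the start used for the exon peak. It held 41.0, 26.7 and 22.9 CPM in controls and 14.6, 18.7 and 16.1 CPM in Dyrk1b libraries. Its log2 change was -0.87 ± 0.40, and -0.58 without control 1. The exon peak and this one showed no overlap between groups, with adjusted p of 0.235 and 0.319 by edgeR's quasi-likelihood test. The other downstream peak overlapped between groups, with a log2 change of -0.21 ± 0.50. Isy1, a Prp19-associated factor, had a promoter log2 change of -0.24 ± 0.22, and the start peak of Syf2, shown above with its ETS cores, one of 0.061 ± 0.22.

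The DEAH helicases and step factors, which remodel the spliceosome and release the mRNA and the intron, had 1 peak each for 6 genes. The Dhx8 promoter held 70.3, 101 and 99.5 CPM in controls and 42.5, 79.4 and 57.6 CPM in Dyrk1b libraries, a log2 change of -0.58 ± 0.24 with an adjusted p of 0.273, although Dyrk1b 2 lay above control 1. Cdc40, a step factor for the second transesterification, held 130, 63.2 and 55.1 CPM in controls and 65.0, 72.8 and 64.5 CPM in Dyrk1b libraries. Its log2 change of -0.31 ± 0.25 rests on control 1 and was 0.18 without it. Dhx16 had a log2 change of 0.10 ± 0.27, and Dhx15, Dhx38 and Prpf18 lay between -0.012 and 0.21.

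**Figure D3:**
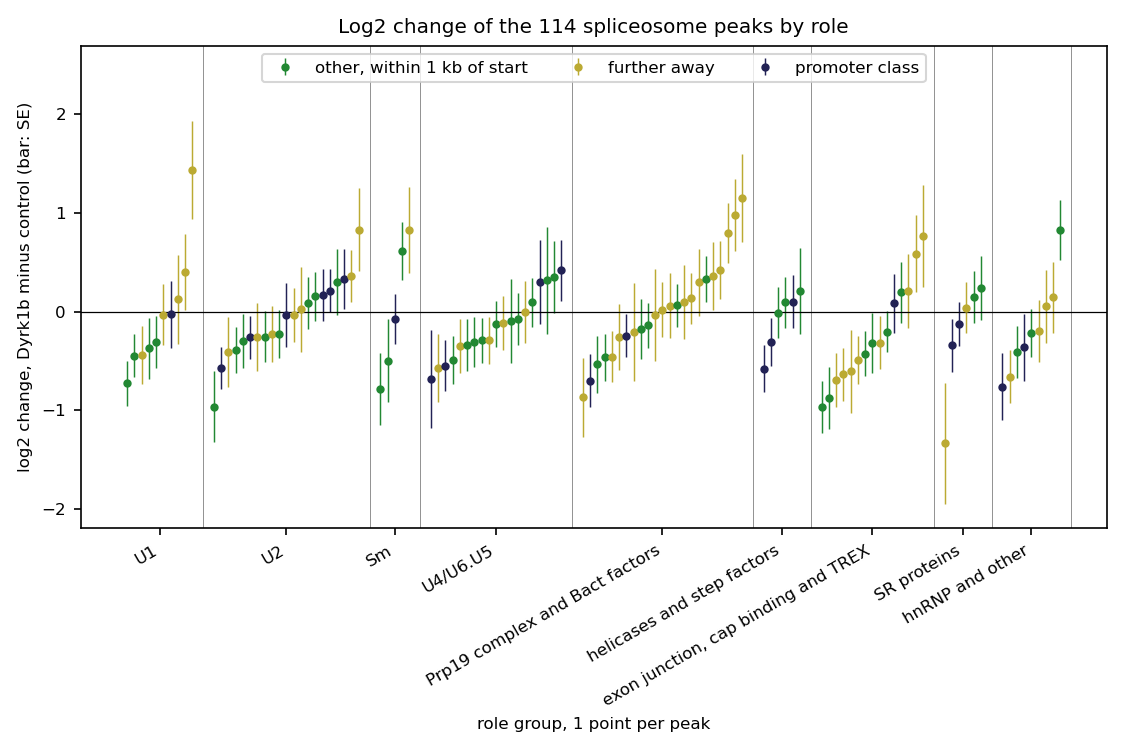
Log2 change, Dyrk1b minus control under TMM, of each of the 114 spliceosome peaks with its SE, ordered within 9 role groups and coloured by distance class. The highest value is the Snrnp70 intron peak at 1.43 and the lowest the Srsf10 intron peak at -1.34; under library totals every point lies higher.

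Exon junction, cap binding and TREX genes, which couple splicing to mRNA export, held 15 peaks of 9 genes with a median log2 change of -0.32 under TMM and -0.15 under library totals, 0 higher and 5 lower at an unadjusted p under 0.05, beside 6.44% and 7.72% of all peaks. Without 4931428L18Rik, a member by annotation only, 2 of the remaining 8 peaks were lower and the median was -0.26. Thoc1, a subunit of the THO part of the TREX export complex, had the lowest p of all members. Its peak 110 bases after the start held 65.7, 92.3 and 59.2 CPM in controls and 35.8, 40.8 and 34.6 CPM in Dyrk1b libraries. The means were 72.4 ± 17.6 and 37.1 ± 3.30 CPM (SD, n = 3 each). Every Dyrk1b library lay below every control, with a log2 change of -0.97 ± 0.26 and an adjusted p of 0.112 by edgeR's quasi-likelihood test, and the change stayed between -1.09 and -0.76 as single libraries were left out. Ncbp2, the small subunit of the nuclear cap binding complex, held 52.8, 46.2 and 45.7 CPM in controls and 38.5, 18.7 and 23.0 CPM in Dyrk1b libraries at the peak 217 bases after the start (16:31767331-31767765). These groups did not overlap, and the log2 change was -0.88 ± 0.31 (adjusted p = 0.220). The other 3 lower peaks, with log2 changes of -0.70 ± 0.27, -0.64 ± 0.27 and -0.49 ± 0.24, all belonged to 4931428L18Rik and lay 126215 to 203042 bases from its start. The second was -0.39 without Dyrk1b 2 and the third -0.31 without control 1. Eif4a3, the helicase that anchors the exon junction complex, had a promoter log2 change of 0.084 ± 0.30, Alyref2 one of -0.20 ± 0.21 at its start and Ddx39b, the TREX helicase, one of -0.43 ± 0.22.

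The SR proteins, the direct substrates of the Clk kinases, held 6 peaks of 5 genes, 3 on each side of 0. At Srsf1 the peak 850 bases after the start held 31.6 ± 11.7 CPM in controls and 37.4 ± 9.75 CPM in Dyrk1b libraries (SD, n = 3 each), a log2 change of 0.24 ± 0.32. Srsf4 and Srsf9 had promoter log2 changes of -0.34 ± 0.27 and -0.13 ± 0.22. The only SR peak at an unadjusted p under 0.05 lay in intron 2 of 5 of Srsf10, a splicing repressor when dephosphorylated. It held 9.38, 23.1 and 25.5 CPM in controls and 9.29, 1.10 and 11.5 CPM in Dyrk1b libraries, a log2 change of -1.34 ± 0.62 with an adjusted p of 0.319. The groups overlapped, Dyrk1b 2 held a single read there, and the log2 change was -0.86 without it.

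Among hnRNP and other pre-mRNA binding proteins, 9 peaks of 6 genes were measured, with 1 higher and 2 lower at an unadjusted p under 0.05, beside 6.44% and 7.72% of all peaks. The Hnrnpc promoter peak 440 bases before the start held 34.0, 55.9 and 28.2 CPM in controls and 27.9, 16.5 and 25.3 CPM in Dyrk1b libraries. The lowest control lay above the highest Dyrk1b library by less than 1 CPM, and the log2 change of -0.76 ± 0.34 (adjusted p = 0.308) was -0.42 without control 2. The other Hnrnpc promoter peak, 1422 bases before the start, had a log2 change of -0.37 ± 0.34. Hnrnpu, a nuclear matrix protein, held 63.3, 54.7 and 59.2 CPM in controls and 30.5, 34.2 and 45.3 CPM in Dyrk1b libraries at a peak in intron 12 of 16, without overlap (log2 change -0.66 ± 0.27, adjusted p = 0.274). Pcbp1, a gene with 1 exon, went the other way. Its peak 784 bases after the start (6:86502256-86502782) held 36.3, 17.0 and 32.3 CPM in controls and 45.1, 55.1 and 51.4 CPM in Dyrk1b libraries, without overlap, a log2 change of 0.83 ± 0.30 with an adjusted p of 0.228.

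**Figure D4:**
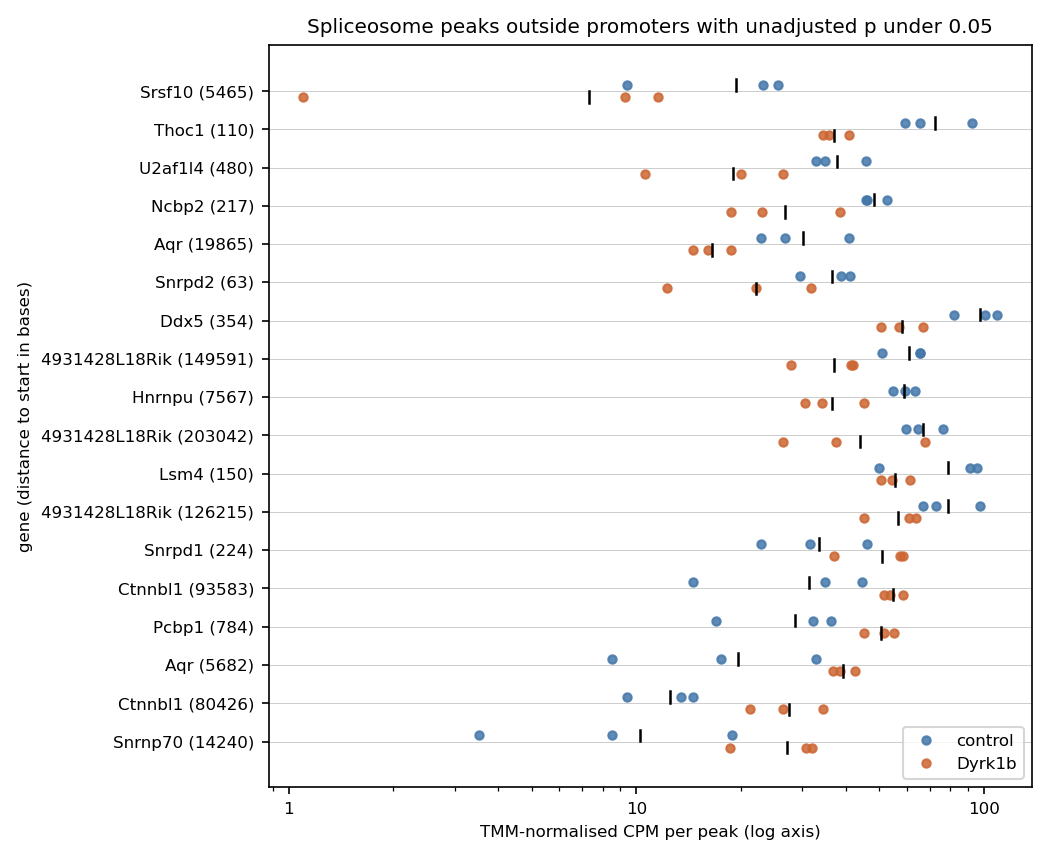
TMM-normalised CPM (log axis) of 18 of the 19 spliceosome peaks outside the promoter class with an unadjusted p under 0.05, 1 point per library, mean as a black bar, distance to the start in bases. The 12 upper peaks have lower and the 6 lower peaks higher Dyrk1b means under this scaling. At Thoc1, Ddx5 and Ncbp2 all Dyrk1b points lie below the controls. The groups overlap at Snrnp70, Srsf10, Snrpd1, Snrpd2, Lsm4 and the 4931428L18Rik peak at distance 203042.

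Start and body peaks of the same gene were set side by side, with no test of the difference. Of the 15 genes with both, the body median lay above the start value in 10 and below it in 5 under TMM. A single scaling factor per library shifts all peaks alike, whereas loess offsets vary with the level of the peak. With loess offsets the member medians were -0.14 at the non-promoter peaks within 1 kb and -0.056 further away. The gap was 0.0078 at Ddx23 and widest at Snrnp70, -0.37 at the start and 1.43 in the body, and at U2surp, -0.39 and 0.83. Ctnnbl1 had -0.54 at the start and a median of 0.12 over 6 body peaks. Sf3a3 had 0.33 at the start, the value that rests on single controls, and -0.26 at a peak 8840 bases from a start. The same order held over all peaks under TMM, with medians of -0.098 and -0.054 at starts and 0.064 further away. With loess offsets these medians lay closer together, at -0.025, 0.017 and 0.034.

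Other splicing regulators, a list of 55 genes outside the pathway annotation, had peaks at 42 genes. Of 81 peaks tested, 40 had log2 changes above 0 and 41 below, with a median of -0.0053, and 5 were higher and 4 lower at an unadjusted p under 0.05, shares near or below the 6.44% and 7.72% of all peaks. The 5 higher peaks were those in exons 9 and 11 of Dyrk1b itself, the overexpressed gene, and peaks of Ptbp3, Prpf4b and Upf1. The only called peak of this list was the one in exon 9 of Dyrk1b. Next to the peaks of Dyrk1b, the lowest p was at Hnrnph1, which binds G runs near splice sites. Its peak 801 bases after the start held 84.4, 62.0 and 76.6 CPM in controls and 49.1, 44.1 and 29.2 CPM in Dyrk1b libraries without overlap, a log2 change of -0.90 ± 0.26 with an adjusted p of 0.140 by edgeR's quasi-likelihood test. The kinases of splicing factors in the list, apart from Dyrk1b, had 17 tested peaks at 6 genes, 9 with a log2 change above 0 and 8 below, from -0.75 in a Srpk2 intron to 0.69 near the start of Prpf4b. Dyrk1a, the nearest relative of Dyrk1b, had log2 changes of 0.21 ± 0.29 at its promoter and -0.31 ± 0.33 at its start peak, and its other 4 peaks lay between -0.47 and 0.091.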

How the data were processed

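ATAC-seq of 6 liver samples was compared, 3 per group by the labels. The authors deposited 1 table of merged peaks with, per the file headers, read counts, RPKM values, a log2 ratio of the groups, 1 p-value with its FDR, and an annotation of gene, class and pathway. The annotation's signed distance to the gene start is a score the authors deposited, in bases. Per the submitters' processing notes Bowtie2, DiffBind and ChIPseeker were used with the build mm10. Peak calling, duplicate removal, any read shift and how the deposited p-values were tested: not given in the sources used here.

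Counts as deposited entered edgeR 4.0.16 under R 4.3.3 (TMM, filterByExpr, quasi-likelihood test, no covariate), with Benjamini-Hochberg adjustment over the 22051 peaks tested. The filter removed 361 peaks, and the common biological coefficient of variation was 19.9%. CPM are TMM-normalised. The RPKM values served only to recover the library totals. Starts within 1 kb were set apart after seeing the data. Alternatives were other scalings, DESeq2 1.42.0, limma 3.58.1, no filter, a replicate block, leaving out each library, a wider promoter window and 1 peak per gene. The fit was also run on simulated counts drawn with its own dispersion and TMM factors. That run cannot show which scaling is right, and its outcome is not used here.

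The members, lists and role groups were chosen with earlier results of these data known. Named by rule were, at promoters, the 3 peaks of lowest p per role group, the 8 of lowest p in each direction and the 5 of highest mean, outside promoters the 6 peaks of lowest p, and all peaks of Sf3b1, Prpf8, Srsf1 and U2af2. All other named peaks were chosen after their values were seen. Some members are counted but not reported here by name. No sequence of chromosome 18 is printed.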

Additional observations from a re-analysis of the deposited data

How the results depend on the processing

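No spliceosome peak had an adjusted p under 0.05 in any of the 15 fits, the main one included, and none of the 31 peaks reported here that were named by rule gained a call. Over all peaks, the calls of 2 higher and 5 lower became 2 lower with library size alone, 1 higher with loess offsets, 1 higher and 0 lower with library totals, 0 higher and 19 lower with DESeq2, 0 higher and 2 lower with limma-trend, and 0 to 6 higher and 0 to 9 lower as single libraries were left out. The 5 member promoters that were lower at an unadjusted p under 0.05 became 2 with loess offsets, 0 with library totals and 12 when all peaks within 3 kb of a start counted as promoters, and 3 to 4 as single libraries were left out. The 0 higher became 2 with the 3 kb window and 0 to 1 without single libraries. Their median of -0.19 became -0.086 with loess offsets, -0.015 with library totals and -0.27 to -0.066 without single libraries. Outside promoters, 13 lower became 1 with library totals, 6 with the 3 kb window and 8 to 15 without single libraries, and 6 higher became 4 to 7. That median of -0.12 became 0.041 with library totals, 0.0081 with the 3 kb window, -0.22 within 1 kb, -0.0041 beyond it and -0.20 to -0.055 without single libraries. The causes were not tested, apart from the peaks moved by the 3 kb and 1 kb limits.

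Of these 31 peaks, 8 changed sign in some setting. With library size alone these were Sf3b1 at its promoter 0.0080 and Prpf8 in the body 0.031. With loess offsets they were Snrpe 0.030, Srsf9 0.018 and Sf3b1 downstream -0.20. With library totals they were Snrpe 0.094, Srsf9 0.044, Sf3b1 at its promoter 0.16 and Prpf8 0.15, and with limma-trend Prpf8 0.013 and Eif4a3 -0.012. Without single libraries the ranges were -0.52 to 0.18 for Cdc40, -0.21 to 0.39 and -0.52 to 0.22 for the downstream and promoter peaks of Sf3b1, -0.14 to 0.14 for Prpf8, -0.069 to 0.29 for Dhx16, -0.13 to 0.35 for Eif4a3 and -0.20 to 0.017 for Snrpe.

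Replicate numbers did not pair the samples, with correlations of -0.0098, -0.014 and 0.0073 between same-numbered libraries. With a replicate block the calls over all peaks stayed at 2 higher and 5 lower, 5 member promoters and 10 peaks outside them were lower and 6 higher at an unadjusted p under 0.05, the medians were -0.17 and -0.11, and Prpf8 in the body stood at 0.016. At 32 to 53.5 reads in the median member peak, counting error alone limits the precision of single peaks.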
